A study of Mus musculus with 8 samples.

Results

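Immature neutrophils that had stopped cycling and were filled with specific granule transcripts made up 1153 of the 12253 cells kept from mouse long bone periosteum. Cells were kept when between 500 and 8000 genes were detected in them and mitochondrial transcripts stayed below 20%. To count as immature it had to devote at least 2% of its transcripts to Ngp, Camp and Ltf together and at least 1% to S100a8 and S100a9 together. It also had to hold fewer than 3 transcripts of Mki67 and Top2a, fewer than 10 of Elane, Mpo and Prtn3, none of Cd79a, and under 0.5% of Col1a1, Col1a2, Col3a1 and Dcn. The cells were thus chosen by the measured levels of these 15 genes, which are given as a description only. The cells came from C57BL/6J male mice aged 16 weeks, kept for 12 weeks on normal diet chow (ND) or high-fat diet chow (HFD), and the labels list 4 samples per diet. Periosteal cells were freed from left femurs and tibias with collagenase and dispase without any sort, so blood and marrow cells could enter. Each diet is 1 pooled library in which no cell is assigned to a mouse, so there is no replicate error and no test between diets. Transcripts are counted as unique molecular identifiers (UMIs), a level is given in UMIs per 1000000 UMIs of a set of cells (UPM), and all intervals are 95% intervals for counting error only.

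Neutrophils arise in the bone marrow, where dividing precursors first load primary granules with proteases such as elastase and myeloperoxidase. After the last division the cells fill specific granules with antimicrobial and iron-binding proteins, then gelatinase granules, and only later acquire the receptors and cytokine transcripts of the circulating cell. Factors of the C/EBP family, above all C/EBPε, and the Ets factor PU.1 are known to drive the granule genes. The markers of the specific granule stage are Ngp, the neutrophilic granule protein, Camp, the precursor of the cathelicidin peptide, Ltf, the iron-binding lactotransferrin, Lcn2, which binds bacterial siderophores, and Mmp8, the neutrophil collagenase. Ly6g is the surface protein by which mouse neutrophils are recognised.

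Stretches of the start regions of these genes are shown because they hold the letters that those factors are known to bind. Of 32851 RefSeq promoters (GRCm38.p6, 250 bases before the start), 3142 (9.56%) held the C/EBP motif TTGCNNAA on either strand and 3486 (10.6%) held the PU.1 motif GAGGAAG on either strand. No match of one motif overlapped a match of the other in the 6 marker genes. The C/EBP letters were found upstream of 5 of the 6 marker genes and the PU.1 letters upstream of 3 of them (Lcn2, Mmp8 and Ly6g). The windows below are 30 bases long and written 5′ to 3′ on the gene's own strand, with the C/EBP letters in capitals.
Ngp: gtcctggtttaTTGCCCAAacctccttgcc
Ltf: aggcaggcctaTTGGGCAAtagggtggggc
Mmp8: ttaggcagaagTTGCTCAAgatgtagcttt
Lcn2: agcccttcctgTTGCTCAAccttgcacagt
Ly6g: ctaggaaggggTTGAGCAAgttgcctcttt
They lie at chr9:110419659-110419688 (Ngp, plus strand), chr9:111019206-111019235 (Ltf, plus), chr9:7558399-7558428 (Mmp8, plus), chr2:32387937-32387966 (Lcn2, minus) and chr15:75155018-75155047 (Ly6g, plus). Ngp held a second C/EBP match 4 to 11 bases before its start, which GENCODE M21 places in an untranslated exon of Ngp and which is not shown. GENCODE M21 places no feature over the shown Ngp, Ltf, Mmp8 and Ly6g windows, while the Lcn2 window falls in a coding exon of a longer Lcn2 transcript. Mmp8 and Lcn2 carry the same 8 letters, 12 to 19 and 209 to 216 bases before their RefSeq starts. Camp held neither motif in its window, which says only that these letters are not there. Camp (chr9:109847379-109849617), Ngp (chr9:110419747-110423012) and Ltf (chr9:111019271-111042767) lie on the same chromosome.

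Marker genes outside the rule matched the labelled identity. Lcn2 was present in every immature cell of both libraries, with a level of 18220 UPM in ND (18106 to 18334) and 16850.3 in HFD (16755 to 16946). Mmp8 was present in 84.0% and 82.9% of cells at 2019.8 and 1860 UPM. Ly6g was present in 90.8% and 92.5% of cells at 642 and 647 UPM. Cells with 3 or more Cd79a UMIs, B-lineage cells that should lack these genes, held Ly6g in 2.95% and 2.13% of cells and Lcn2 in 21.2% and 20.6%. Their median depth was 3969 UMIs in ND and 3865.5 in HFD, against 10436 and 10032.5 in the immature neutrophils. Cells were also thinned to 1000 UMIs each, without the shallower ones (4 immature neutrophils in ND and 2 in HFD, 6 and 5 B-lineage cells). Then Ly6g was found in 43.5% (ND) and 42.0% (HFD) of immature neutrophils and in 0.74% and 0.39% of the B-lineage cells. At this common depth Lcn2 was found in all of the 483 ND and 664 HFD immature neutrophils left and in 7.04% and 6.72% of the B-lineage cells.

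The rule genes themselves filled nearly as much of these cells as all others together, 44.3% of UMIs in ND and 46.2% in HFD. S100a9 and S100a8, which form the alarmin calprotectin, stood at 187188 and 151406 UPM in ND. Ngp was at 53617 UPM in ND and 54814 in HFD, Camp at 39682 and 43333, and Ltf at 10523 and 10711. Single cells spread widely around these sums. Ngp ran from 6297 to 135300 UPM among ND cells, with a median of 47984, and Ngp was absent from 4 HFD cells that passed through Camp and Ltf. The limit on Ngp, Camp and Ltf cut through a continuum, with 24 ND and 34 HFD cells just under it (1.5 to 2% of UMIs) and 35 and 40 cells just above it (2 to 2.5%). Lcn2 stood at 8557 and 8485 UPM just outside the limit and at 10883 and 7192 just inside it, and Retnlg, a resistin-like secreted protein, at 50966 and 57566 outside against 49880 and 49354 inside. Across the limit Retnlg was slightly lower inside in both libraries, while Lcn2 went up in ND and down in HFD.

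Some cells and barcodes need mention before the comparisons. The libraries shared 15 cell barcodes, and none of these was an immature neutrophil. Scrublet called 9 doublets in ND and 23 in HFD, under 0.5% of the kept cells of either library, so its calls were not relied on, doublets were kept and the values were also computed without the 5% of cells with the highest scores (18 ND and 27 HFD immature neutrophils). Of the immature neutrophils, 32 in ND (6.57%) and 62 in HFD (9.31%) held 5 or more UMIs of any of 8 marker lists of other cell types (B cells, erythroid cells, mesenchymal cells, monocytes and macrophages, T and NK cells, endothelial cells, early progenitors and MHC class II). The basophil and mast cell list and the eosinophil list were left out of this count, and 337 ND and 491 HFD cells held 5 or more UMIs of the former, nearly all of them Hdc. Several of the most extreme differences below rest on 1 cell and are named as such.

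Immature neutrophils were a larger part of the HFD library. They made up 487 of 6029 kept ND cells (8.08%, exact binomial interval 7.40 to 8.79) and 666 of 6224 kept HFD cells (10.7%, 9.94 to 11.5). Of the 4 neutrophil sets together they took 22.4% (20.7 to 24.2) of ND cells and 30.5% (28.6 to 32.5) of HFD cells. The other sets were cut from the same genes. Cycling precursors met the rule but held 3 or more Mki67 and Top2a UMIs, with any level of Elane, Mpo and Prtn3. Intermediate neutrophils had at least 5% S100a8 and S100a9 with Ngp, Camp and Ltf between 0.5% and 2%, and mature neutrophils the same with under 0.5%. Cycling precursors were 2.34% of kept cells in ND and 2.22% in HFD, and intermediate cells 2.65% and 2.78%. Mature neutrophils were 22.9% (21.9 to 24.0) in ND and 19.4% (18.4 to 20.4) in HFD. The intervals of the immature and of the mature shares did not overlap between the libraries, those of the other sets did. Whether mice within a diet differ as much cannot be told from 1 library per diet.

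**Figure D1:**
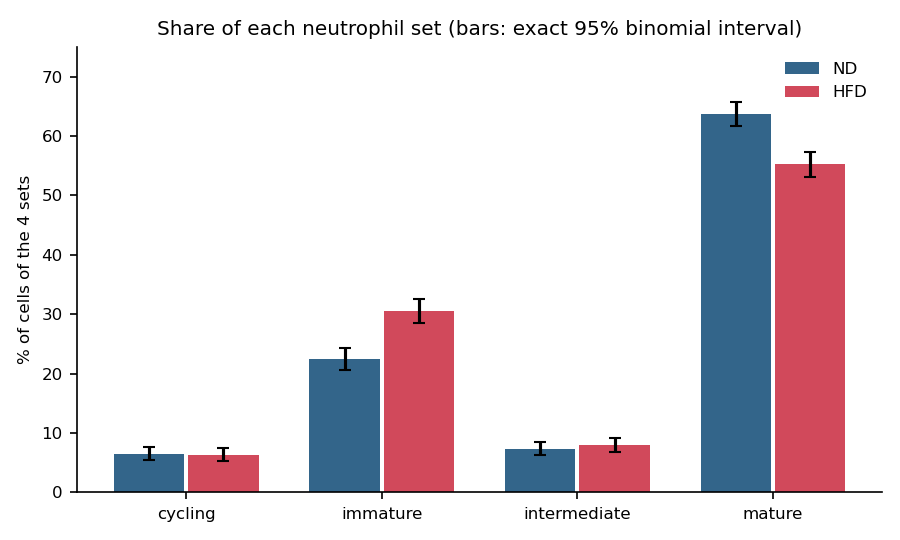
Share of each neutrophil set among the cells of all 4 sets, in percent, for the ND (blue) and HFD (red) library, with exact 95% binomial intervals. Immature cells are 22.4% in ND and 30.5% in HFD, and mature cells 63.7% and 55.2%.

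Along the sets from cycling to mature, the 6 markers followed 3 courses that were alike in both libraries. Camp was highest in the cycling precursors (62194 UPM in ND, 65609 in HFD) and lower in the immature cells, and Ngp was nearly level between them (51228 and 57180 in the precursors). Ltf and Lcn2 peaked in the immature cells, Lcn2 going from 12022 and 12249 UPM in precursors to 18220 and 16850.3, then to 7687 and 6178 in intermediate and 2333 and 1943 in mature cells. Mmp8 came later, from 27.3 and 38.2 UPM in precursors over 2019.8 and 1860 to a peak of 3239 and 2656 in intermediate cells. Ly6g went from 125 and 149.9 UPM in precursors to 642 and 647 in immature and 183 and 138 in mature cells. Ngp, Camp and Ltf chose these sets, so the fall of their sum from immature over intermediate to mature cells is fixed by the rule. Precursors and immature cells had the same limit on them, and Lcn2, Mmp8 and Ly6g were not used.

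Genes of other steps of maturation were ordered around this peak. Cebpe, which encodes C/EBPε, was at 413 UPM (394 to 433) in ND precursors, 177 (166 to 189) in immature, 44.2 (32.3 to 59.2) in intermediate and 16.8 (13.5 to 20.7) in mature cells, with 393, 157, 33.3 and 12.8 in HFD. Mmp9, the gelatinase, was at 48.3 and 40.0 UPM in precursors and at 990.4 and 926 in immature cells, with 1528 and 1281 in intermediate and 983 and 1004 in mature cells. Csf3r, the receptor for the neutrophil growth factor G-CSF, was at 117 and 113 UPM in immature cells and at 1094 and 1100.3 in mature cells. Cxcr2, which draws neutrophils out of the marrow, was at 111 and 82.0 UPM in immature and 427 and 417 in mature cells. Il1b, the inflammatory cytokine, was at 143 and 179 UPM in immature and 3582 and 3568 in mature cells. Immature neutrophils thus held Mmp9 near its mature level, Cebpe below its level in precursors, and less of Csf3r, Cxcr2 and Il1b than mature cells.

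**Figure D2:**
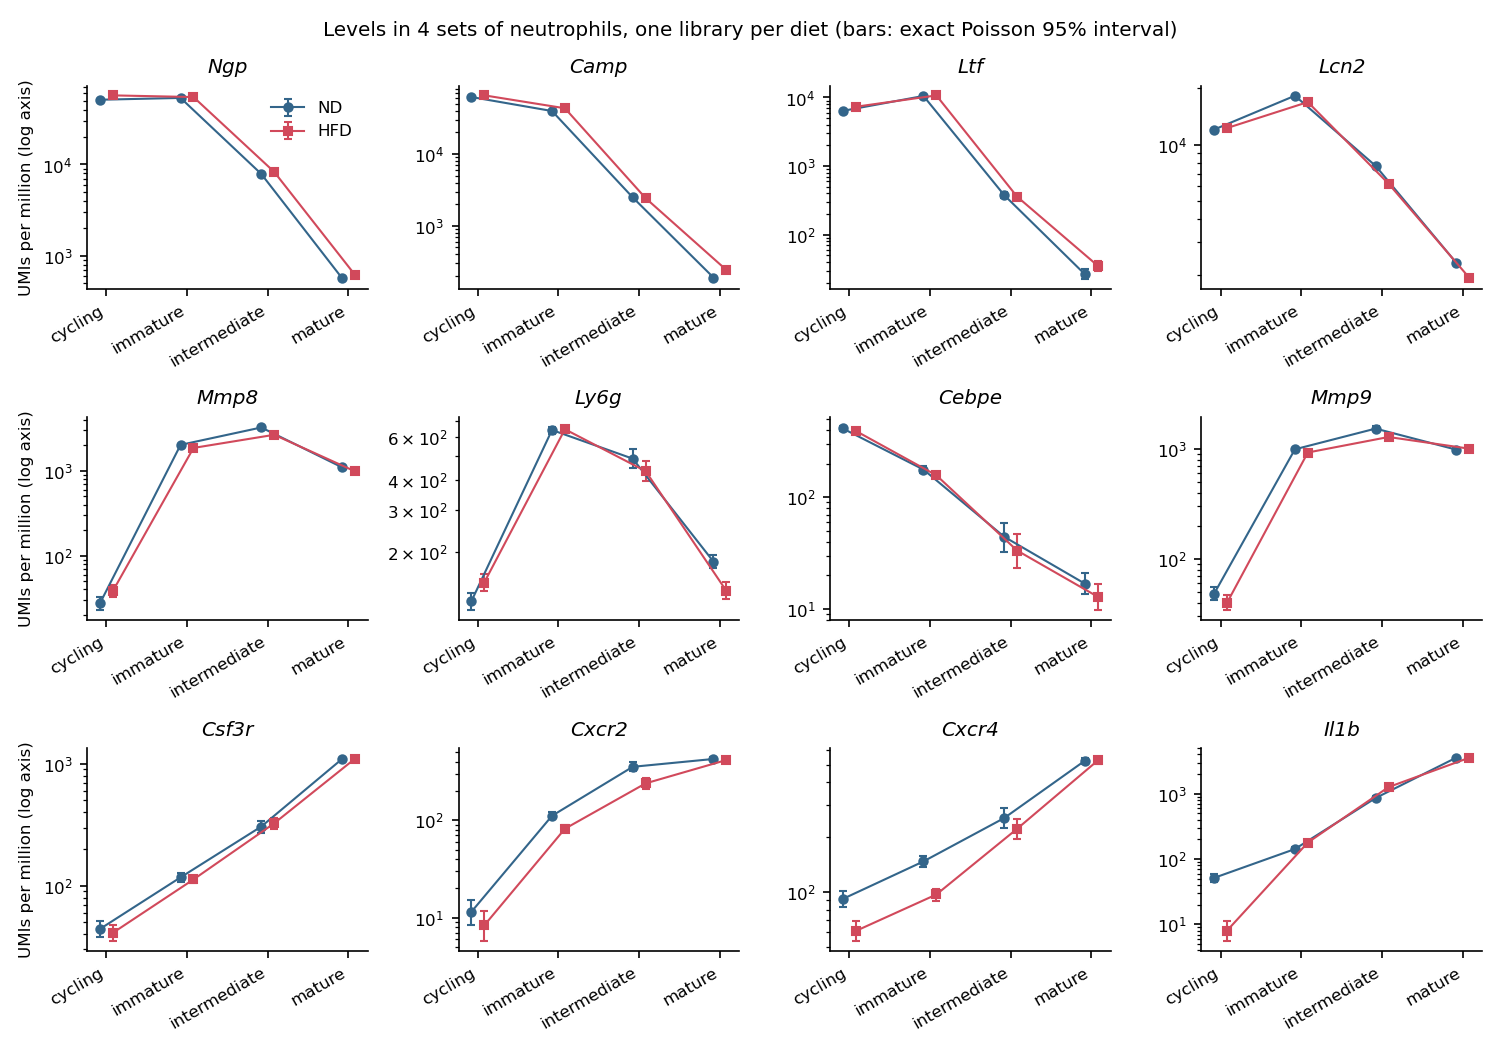
Levels of 12 genes in UPM (log axis) in cycling, immature, intermediate and mature neutrophils of the ND (blue) and HFD (red) library, with exact Poisson 95% intervals. Lcn2 and Ly6g peak in the immature cells, Mmp8 in the intermediate cells, and Csf3r, Cxcr4 and Il1b are highest in the mature cells.

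Against mature neutrophils, 352 of 4967 measured genes were at least 2-fold higher in immature cells in both libraries (7.09%) and 957 were at least 2-fold lower (19.3%). A gene was measured when both sets and libraries together held at least 200 of its UMIs, and 1431 of the 4967 needed the UMIs of the mature cells to reach it. Of the 3536 that reached the minimum in the immature cells alone, 312 were higher and 552 lower. The balance also depends on the scale. The rule genes take 21.3% (ND) and 21.9% (HFD) of the UMIs of mature cells, and with them left out of the total 700 genes were higher and 493 lower, the median gene moving from -0.34 to 0.16 on the log2 scale in ND. Directions named below held on both scales. Chil3, a chitinase-like secreted protein, was at 2438 and 2394 UPM in immature and 18.9 and 18.6 in mature cells. Orm1, the acute-phase protein orosomucoid, was at 221 and 181 UPM in immature cells against 3 UMIs in all mature cells of each library, and it was found in only 35.7% and 35.3% of the immature cells. Fcnb, the lectin ficolin B, was at 144 and 161 UPM in immature and 2.51 and 2.56 in mature cells. Ldhc, the lactate dehydrogenase isoform best known from testis, was at 98.9 and 117 UPM against 3 and 4 UMIs in the mature cells. Krt81, Mogat2, Hsd17b7, Tmem216 and Tmem45a2 were also among the 10 highest. Retnla stood there too, but 324 of its 327 UMIs in ND and 531 of its 537 in HFD came from 1 cell in each library.

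The 10 lowest genes against mature neutrophils are given as single genes, not as a group. All but Ifitm1 (96 and 104 UMIs in the immature cells) reached the minimum only through the mature cells, where they are high. Pla2g7, which breaks down platelet-activating factor, was at 9.65 and 9.50 UPM in immature and 498 and 656 in mature cells. Ifitm1, an interferon-induced membrane protein, was at 17.8 and 14.8 UPM against 604 and 552. Cd101, a surface protein that marks mature mouse neutrophils, was at 1.86 and 1.99 UPM against 59.1 and 80.6. Csf1, a macrophage growth factor, was at 4.83 and 3.69 UPM against 139.8 and 108. Sirpb1b, Sirpb1c, Il13ra1, Oasl1, Gm19696 and 5430425K12Rik completed the 10 lowest. Sirpb1b and Sirpb1c are closely similar copies between which reads could be split, so their single values are uncertain.

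Gene lists are read against the 7.09% of all genes that were higher and the 19.3% that were lower. Of 19 specific granule genes outside the rule, 11 were at least 2-fold higher in immature than in mature cells in both libraries and none was lower (median log2 2.37 in ND and 2.46 in HFD, against -0.34 over all genes in each library). They were Abca13, Adpgk, Anxa1, Cd177, Ceacam1, Chil3, Cybb, Lcn2, Lta4h, Olfm4 and Orm1. Of 26 cytokine and pattern receptors 19 were lower, among them Csf3r, Il1r2, Clec4e, Tlr2 and Tlr4, and 1, Ltb4r1, was higher. Of 19 inflammatory mediators 11 were lower, among them Il1b, Cxcl2, Nlrp3 and Ptgs2, and 1, Wfdc21, was higher. Of 36 AP-1 and early response genes 24 were lower and 1, Fosl1, was higher. Of 22 interferon-stimulated genes 12 were lower and 1, Ifitm6, was higher. Cholesterol and fatty acid synthesis went the other way, with 6 of 13 genes higher, among them Hmgcs1, Hsd17b7, Idi1, Msmo1 and Srebf2, and none lower. With the rule genes out of the total, where 14.1% of all genes were higher and 9.93% lower, these counts became 16 of 19 (specific granules), 14 of 26 (receptors), 10 of 19 (mediators), 20 of 36 (AP-1), 10 of 22 (interferon) and 10 of 13 (cholesterol). Members that needed the UMIs of the mature cells to enter were chosen for being low in the immature cells. Among members with 200 UMIs in the immature cells alone, 4 of 12 interferon-stimulated genes, 13 of 20 receptors, 9 of 15 mediators and 21 of 32 AP-1 genes were lower, and all 19 specific granule genes were among such genes. These counts stand against all 3536 genes that reached this minimum, of which 312 were higher and 552 lower.

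The intermediate neutrophils differed from the immature cells in fewer genes, 192 of 3866 higher in immature cells (4.97%) and 224 lower (5.79%). Of the 3866 genes 330 needed the UMIs of the intermediate cells to reach the minimum. Of the 3536 that reached it in the immature cells alone, 184 were higher and 181 lower. With the rule genes left out of the total the split over all 3866 was 317 higher and 124 lower. Chil3 stood at 53.1 and 60.7 UPM in intermediate cells and was again among the most different genes. Orm1 and Fcnb each had 1 UMI in ND and 2 in HFD over all intermediate cells, and Tmem216 likewise. Zmpste24, a protease of the nuclear lamina, was at 171 and 177 UPM in immature and 7.86 and 5.87 in intermediate cells. Lower in the immature cells were Ccl6, a chemokine, at 143 and 198 UPM against 1508 and 2212, and Nlrp3, the inflammasome sensor, at 27.3 and 24.5 against 171 and 169. Il1b was at 143 and 179 UPM against 862 and 1267. Of the 19 specific granule genes 7 were at least 2-fold higher in the immature than in the intermediate cells and none lower (8 with the rule genes out of the total), and of 15 inflammatory mediators 7 were lower and none higher. Fabp4, the fatty acid carrier of fat cells, was also among the 10 lowest, at 8.54 and 32.6 UPM against 84.5 and 446, but its smaller log2 ratio went from -3.30 to -0.59 without the cells of the highest doublet scores.

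Cycling precursors held less of the later granule transcripts and, by the rule, held those of division. Of 5264 genes 492 were higher in immature cells (9.35%) and 1205 lower (22.9%). The 48 measured proliferation genes outside the rule were all at least 2-fold lower in immature cells in both libraries, a split that the limit on Mki67 and Top2a had largely set, and 46 of 48 with the rule genes out of the total. Of them 41 needed the UMIs of the cycling cells, where they are high, to enter, and the 7 that reached 200 UMIs in the immature cells alone were lower too. Over all 3536 genes that reached it there, 468 were higher and 416 lower. Hist1h2ab, a replication-dependent histone, was at 2.04 and 1.28 UPM in immature cells against 389.8 and 379 in precursors, and Rrm2, a subunit of ribonucleotide reductase, at 2.23 and 1.84 against 361 and 391. Hist1h2ai had no UMI in immature cells of either library. Of 10 gelatinase granule and late secretory genes 9 were higher in the immature cells, of 13 stefins and S100 alarmins 9, and of 14 interferon-stimulated genes 9, with none lower in any of these lists. Fpr1, the receptor for bacterial formyl peptides, was at 171 and 139.8 UPM in immature cells against 6.77 and 5.97 in precursors. Retnlg was at 19441 and 20219 UPM against 452 and 912. The 10 highest genes were Mmp8, Fpr1, Bst1, Gpr27, Acvrl1, Cstdc4, Stfa2, Chil5, Dmwd and Retnla, the last again from 1 cell per library. Among primary granule genes outside the rule 6 of 10 were lower and none higher. Of the 5 that reached 200 UMIs in the immature cells 2 were lower, against 416 of 3536 over all such genes. The limit on Elane, Mpo and Prtn3 in the immature cells could set this difference in part, since the precursors had no such limit. The specific granule genes were closer than against mature cells, with 2 of 19 higher (Itgam and Mmp8) and 1 lower. The lower one was Chil3, at 6403 and 6017 UPM in the precursors against 2438 and 2394 in the immature cells, so its highest level was in the cycling set.

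Within the immature neutrophils, cells rich in Ngp, Camp and Ltf differed from cells near the limit. In ND 133 cells held 2 to 5% of these UMIs, 122 held 5 to 10%, 230 held 10 to 20% and 2 held more, and in HFD the numbers were 155, 177, 334 and 0. The range from 10 to 20% took 47.2% of ND cells (42.7 to 51.8) and 50.2% of HFD cells (46.3 to 54.0). Depth per cell grew along the ranges, from a median of 7130 over 9315.5 to 12864.5 UMIs in ND. All rank correlations below are therefore over cells thinned to 1000 UMIs (483 ND and 664 HFD cells) and describe cells of 1 library each. Among 538 abundant genes Chil3 followed the specific granule share most closely, with Spearman's rho of 0.74 in each library. Its level went from 314 and 221 UPM in the lowest range over 898 and 950.1 to 3724 and 3510.5 in the highest. Orm1 went from 3.80 and 6.23 to 364 and 281 UPM and Lta4h, which makes leukotriene B4, from 38.0 and 47.2 to 437 and 415. Lcn2, Lyz2, H2afz, Anxa1 and Arhgdib, with rho between 0.24 and 0.65, made up the rest of the 8 highest.

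Retnlg ran in the opposite direction with rho of -0.77 in ND and -0.81 in HFD, from 40822 and 48334 UPM in the lowest range to 8371 and 8073 in the highest. Mmp8 went from 3396 and 3097 UPM over 3179 and 2900.5 to 1119 and 1141, with rho of -0.58 and -0.55. The calcium-binding S100a6 and S100a11, the protease inhibitor Slpi, the lectin receptor Clec4e and the transcription factor Cebpb behaved alike, as did the nuclear RNA Malat1. Cells at the granule-rich end thus had most Chil3 and Orm1, and cells near the limit most Retnlg and Mmp8, which were also higher in the intermediate set than in the immature cells as a whole. Olfm4, a granule glycoprotein known to occur in only some neutrophils and chosen here after its values were seen, had a UMI in 60 of the 487 ND cells (12.3%) and 95 of the 666 HFD cells (14.3%), with a median of 22.5 and 27.0 UMIs in those cells. Orm1 was by contrast found in more cells with a median of 4 UMIs.

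**Figure D3:**
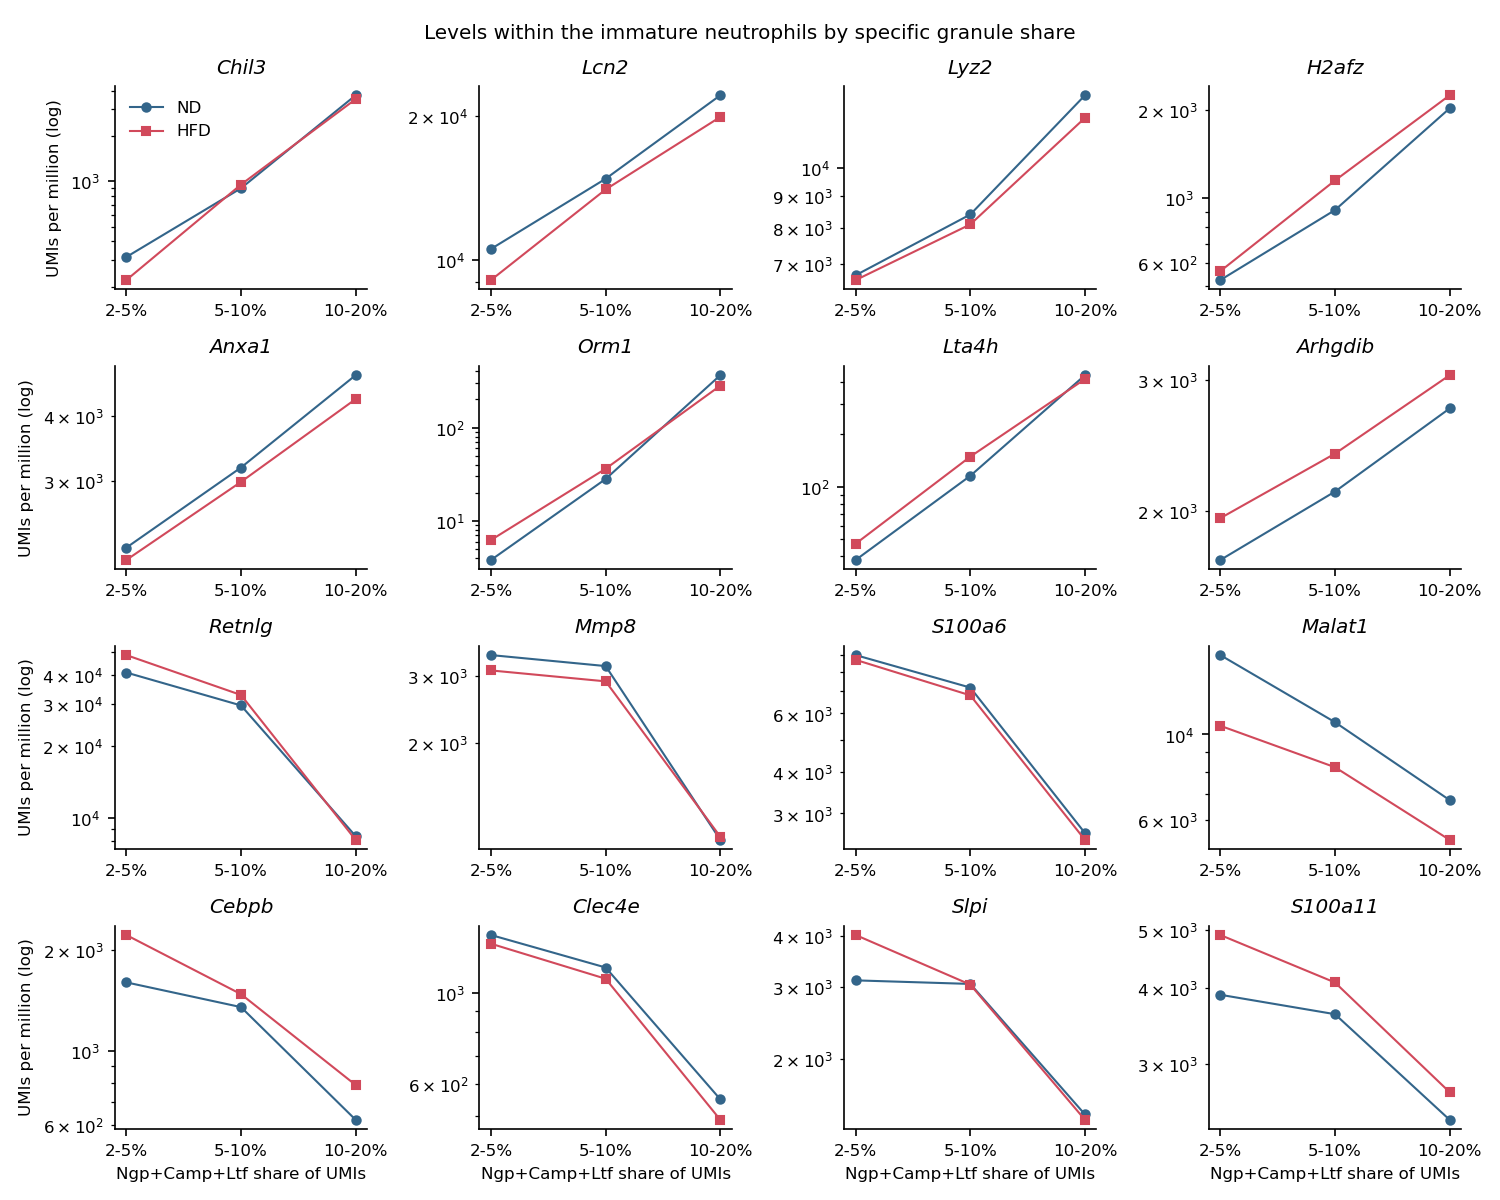
Levels of 16 genes in UPM (log axis) in immature neutrophils of ND (blue) and HFD (red), split by the percentage of UMIs from Ngp, Camp and Ltf. The first 8 genes are higher and the last 8 lower where this share is high, in both libraries.

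Between the diets, 162 of 3543 genes of the immature neutrophils were past 1.5-fold (4.57%). Of these 3543 genes with at least 200 UMIs, 21 were at least 1.5-fold higher in the HFD library (0.593%) and 141 at least 1.5-fold lower (3.98%), and the median gene had a log2 ratio of -0.03. Rule genes stayed in these counts, and 3536 of the 3543 genes lie outside the rule. Col1a1 and Dcn, which the rule limits, are among the 21 and are no result about the cells. The counts past 1.5-fold depend on depth, with 290 higher and 442 lower when each cell was thinned to 1000 UMIs. Below 0 by any amount were 2013 of the 3543 (56.8%). None of the 5 primary granule, 19 specific granule and 10 gelatinase granule genes measured outside the rule was past 1.5-fold in either direction. Their median log2 ratios were -0.07, -0.03 and -0.05. Lcn2 had a ratio of -0.11 (counting interval -0.12 to -0.10), Anxa1 -0.10, Pglyrp1, which binds bacterial cell walls, -0.09, and Chil3 -0.03. Retnlg had a ratio of 0.06 and Mmp9 of -0.10. None of 8 subunits of the NADPH oxidase, which makes superoxide, was past 1.5-fold. Their log2 ratios ran from -0.21 to 0.24, with 0.03 for Cyba, Rac2 and Cybb. Of 16 glycolysis genes none was past 1.5-fold, with ratios from -0.54 (Slc2a3, a glucose transporter, 239.95 and 165 UPM) over 0.04 for Gapdh to 0.16 for Ldha among those named. With 4.57% of all genes past 1.5-fold, none in granule, oxidase and glycolysis lists of this size is near the share of all genes.

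**Figure D4:**
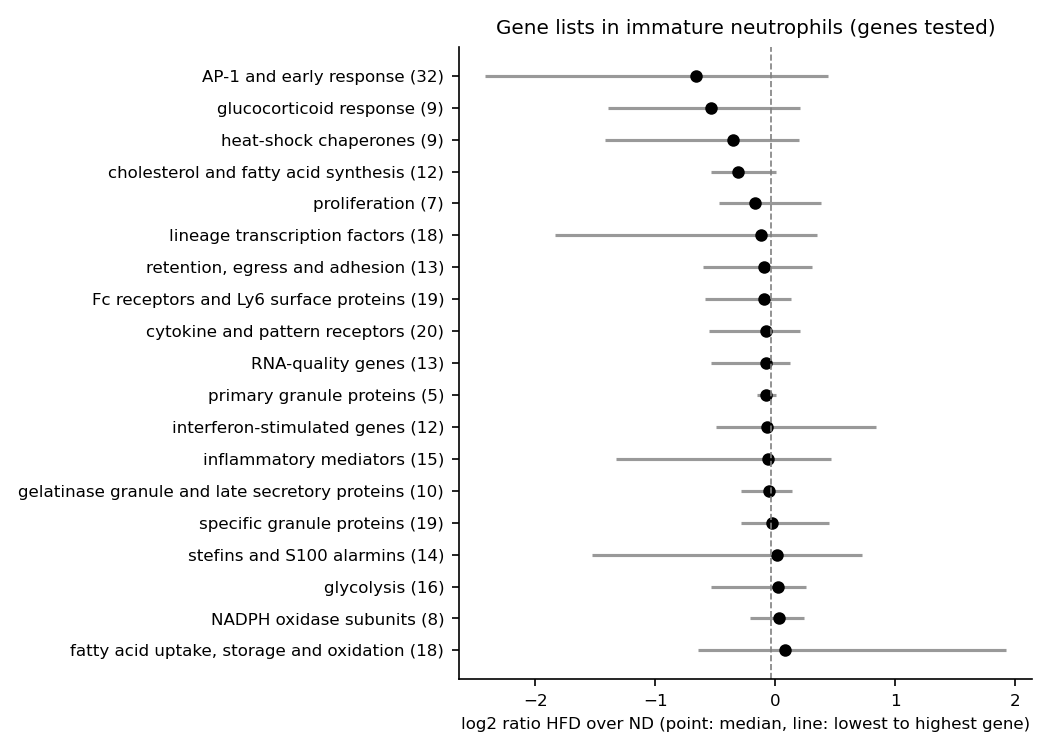
Log2 ratio of HFD over ND in immature neutrophils for each gene list with 5 or more measured genes (number in brackets), as the median (point) and the lowest to highest gene (line). The dashed line is the median of all 3543 genes, -0.03, and the AP-1 list lies lowest with a median of -0.66.

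The clearest difference was in AP-1 and early response genes, which cells are known to switch on within minutes of a stimulus. Of 32 measured genes 27 were lower in HFD and 17 were at least 1.5-fold lower, to be read against 56.8% and 3.98% of all genes. None was 1.5-fold higher. Their median log2 ratio was -0.66, and their summed level was 11228 UPM in ND and 6653 in HFD. Jun, a subunit of AP-1, was at 765 UPM in ND and 152 in HFD, a log2 ratio of -2.33 (-2.43 to -2.24), and had a UMI in 59.5% and 38.0% of cells. Fosb, its partner, was at 98.2 and 18.3 UPM (-2.42, -2.71 to -2.14) and present in 42.5% and 12.2% of cells. Egr1, a zinc finger factor induced by growth signals, was at 97.6 and 21.4 UPM (-2.18, -2.46 to -1.92). Klf2, a factor linked to leukocyte quiescence, was at 1145 and 394 UPM (-1.54), and Klf4 at 32.5 and 9.08 (-1.83). Klf4 was carried by cells near the limit on Ngp, Camp and Ltf, with 130 and 25.8 UPM in the lowest range of that share, 19.8 and 12.3 in the middle and 4.52 and 3.49 in the highest. Fos, Jund, Dusp1, Zfp36, Zfp36l1, Btg2, Ier2, Tnfaip3, Ier3, Klf6, Junb and Ier5 were the others past 1.5-fold. Of the 4 most abundant members, Btg1 was slightly higher (0.13) and Mcl1 lower by less than 1.5-fold (-0.38), while Jund (-1.43) and Klf2 were past it.

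The lower values were found over many cells and in the other sets. With each cell thinned to 1000 UMIs, ND cells held a median of 9 UMIs of the list (quartiles 6 and 15) and HFD cells a median of 6 (quartiles 4 and 9). The summed level was lower in HFD in each range of the specific granule share, with 16802 against 10876 UPM in the lowest, 13687 against 7541 in the middle and 8452 against 5212 in the highest. In the cycling precursors 28 of 31 genes were lower in HFD (17 of them past 1.5-fold), in the intermediate cells 27 of 32 (13, with Klf4 higher past 1.5-fold) and in the mature cells 27 of 32 (8). In cells with 3 or more Cd79a UMIs 30 of 32 were lower (15 past 1.5-fold). Over all genes measured in these sets, 50.6% were lower in the cycling, 54.6% in the intermediate, 57.3% in the mature and 42.5% in the B-lineage cells, and 4.66%, 9.49%, 3.86% and 6.06% were past 1.5-fold lower. No test compared the sets. Without the cells holding markers of the 8 other-cell lists, 24 of 30 genes were lower and 15 of them past 1.5-fold. The nuclear RNA Malat1, read here as an RNA-quality gene, was also lower in HFD (9461 UPM in ND, 6832 in HFD). The summed RNA-quality list, of which Malat1 is the most abundant gene, was at 13226 and 10367 UPM. Of its 13 measured genes 9 were lower and 4 higher in HFD, and none was past 1.5-fold. The median log2 ratio of these 13 was -0.07, against -0.03 over all genes. The mitochondrial share was 0.283% of UMIs in ND and 0.275% in HFD by the median cell. Their part in the difference was not tested, and diet, mouse pool, digestion and library cannot be told apart.

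**Figure D5:**
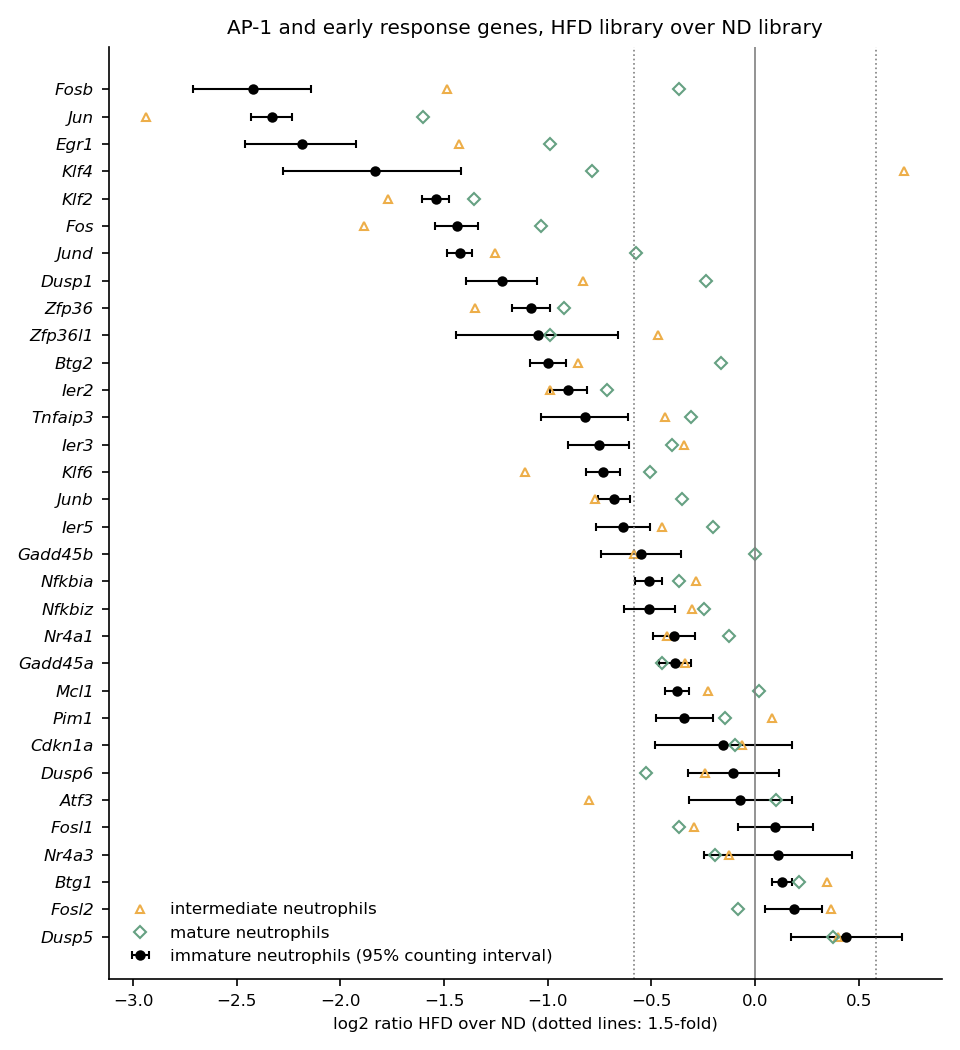
Log2 ratio of HFD over ND for the 32 measured AP-1 and early response genes in immature neutrophils (black, with 95% counting intervals), intermediate (triangles) and mature neutrophils (diamonds). Fosb, Jun and Egr1 lie below -2 in the immature cells, and 27 of 32 genes lie below 0.

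The counts of the smaller groups stand against the same 56.8% of all genes lower and 3.98% past 1.5-fold lower. Of 9 heat-shock chaperones 8 were lower in HFD and 3 past 1.5-fold, Hspa1b (-1.42), Hsp90aa1 (-1.28) and Dnajb1 (-0.94), while Hspa8, the constitutive chaperone, was at 531 and 374 UPM (-0.50). Hspa1b was higher in HFD in the lowest range of the specific granule share (118 and 135 UPM). It was lower in the middle (88.4 and 4.29) and highest range (61.0 and 10.7). The summed list was at 2884 and 2658 UPM in the lowest range, 2685 and 1759 in the middle and 2266 and 1701 in the highest. Of 9 glucocorticoid response genes 8 were lower and 4 past 1.5-fold. Tsc22d3, the glucocorticoid-induced leucine zipper, was at 95.4 and 36.3 UPM (-1.39) and Sgk1, a kinase, at 60.3 and 37.7 (-0.68). The other 2, Dusp1 and Cxcr4, also belong to other lists. Cxcr4, which holds immature neutrophils in the marrow by binding CXCL12, was at 147 UPM (137 to 158) in ND and 96.9 (89.7 to 104) in HFD, with a UMI in 64.3% and 51.7% of cells. It was near equal in mature cells, with 526 and 527 UPM. Of 15 inflammatory mediators 8 were lower and 7 higher, with a median log2 ratio of -0.06. Among them Osm (-1.33), Tnf (-1.13) and Ccl3 (95.8 and 47.9 UPM) were past 1.5-fold lower, while Cxcl2 (0.39) and Ccl6 (0.46) were higher within 1.5-fold. Of 12 cholesterol and fatty acid synthesis genes 11 had lower values in HFD with a median log2 ratio of -0.31, and none was past 1.5-fold. Msmo1, a sterol oxidase, was at 40.5 UPM in ND and 29.1 in HFD.

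Of 18 lineage transcription factors 3 were past 1.5-fold lower, Klf4, Myb (27.3 and 14.9 UPM, -0.87) and Id2 (61.4 and 38.3, -0.68), and none higher. Cebpe was at 177 and 157 UPM (-0.17), Cebpb at 973 and 1175 (0.27), Spi1, which encodes PU.1, at 338 and 353 (0.06), and Cebpd at 299 and 225 (-0.41). None of 19 Fc receptor and Ly6 genes and none of 20 cytokine and pattern receptors was past 1.5-fold, near the 4.57% of all genes. Among the 15 lowest genes overall were also Rhob, a small GTPase that is quickly induced, at 365 and 104 UPM (-1.81), Plk2, a stress-responsive kinase, at 34.0 and 7.94 (-2.09), and the clock gene Per2 at 31.4 and 9.22 (-1.76). In the mature neutrophils Rhob was at 429.8 and 139 UPM (-1.63), while Plk2 differed little there, at 39.0 and 34.95 UPM.

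By any amount 1530 of the 3543 genes were higher in HFD, and 21 were so by 1.5-fold or more. Several of these 21 mark other cells. Slc25a33, a mitochondrial pyrimidine carrier, was at 34.5 and 66.4 UPM (0.94, 0.70 to 1.20), Isy1, a splicing factor, at 57.5 and 105 (0.87), and Isg15, an interferon-induced ubiquitin-like protein, at 27.8 and 49.8 (0.84). Isg15 was the only one of 12 measured interferon-stimulated genes past 1.5-fold. Of these 12 genes 6 were higher and 6 lower, with a median log2 ratio of -0.07. Acot1, a thioesterase that frees fatty acids, was at 37.5 and 61.7 UPM (0.72), and Cstdc4, a stefin, at 130 and 215 (0.73), the last with a UMI in only 10.3% and 11.9% of cells. The 14 measured stefins and S100 alarmins include S100a8 and S100a9 of the rule. Of these 14 Cstdc4 was the only one past 1.5-fold higher, while S100a4 (-1.52), Stfa3 (-0.91) and Cstdc5 (-0.81) were past 1.5-fold lower. In ND 164 of the 317 S100a4 UMIs lay in 1 cell, and Cstdc5 was at -0.42 without the richest cell of each library. Tssc4 was at 14.1 and 22.7 UPM. Rrp1 was at 17.8 and 29.1 UPM (0.70), but its ratio turned to -0.059 with each cell thinned to 1000 UMIs. Fabp4 was at 8.54 and 32.6 UPM (1.92), with 120 of its 230 HFD UMIs in 1 cell, and at 1.21 without the richest cell of each library.

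Several marker lists of other cells had different sums in the immature neutrophils of the libraries. The erythroid list of 9 genes summed to 91.3 UPM in ND and 322 in HFD, against 3256 and 2970 UPM over all kept cells. Most of it in the immature neutrophils was Hbb-bs (236 and 1015 UMIs), and 919 of the 2269 HFD UMIs lay in 1 cell. Without the richest cell of each library Hbb-bs, Hba-a1, Hba-a2 and Hbb-bt kept log2 ratios of 1.07, 1.43, 1.14 and 0.78. Klf1, an erythroid factor, was at 0 in HFD. The list of 15 monocyte and macrophage markers summed to 362 UPM in ND and 80.6 in HFD, led by Fn1 (667 and 102 UMIs), and 584 of the ND Fn1 UMIs lay in 1 cell. C1qa, C1qb and C1qc, complement genes of macrophages, were among the 15 lowest genes with 297, 202 and 207 UMIs in ND and 10, 17 and 6 in HFD. In ND 128, 88 and 91 of these UMIs lay in 1 cell, and the cells near the limit carried the level, with C1qa at 271 UPM in the lowest range of the specific granule share and 1.65 and 3.23 in the others. Of the Ccn2 UMIs in ND 235 of 238 and of the Ccl21a UMIs 247 of 252 were also in 1 cell, with 10 and 0 UMIs in HFD. Cd74, of the MHC class II list (74.97 and 139.8 UPM, Ciita at 0 in HFD), had 331 of its 584 HFD UMIs in 1 cell, and its log2 ratio of 0.91 turned to -0.075 without the highest doublet scores and to -0.12 without the cells holding markers of other types. The mesenchymal list, led by Sparc in ND and Dcn in HFD, summed to 96.3 and 109 UPM with all 11 genes detected. The rule had limited 4 of these (Col1a1, Col1a2, Col3a1 and Dcn), and the other 7 summed to 48.4 and 46.7 UPM. Col1a1, among the 15 highest ratios, was at 10.8 and 21.1 UPM. The B cell list summed to 94.1 and 110 UPM with Cd79a at 0 by the rule, led by Ighm and Igkc, and Igkc, which is among the 15 highest, was at 28.95 and 47.7. T and NK markers summed to 48.25 and 32.6 UPM (Cd4 and Cd8a at 0 in ND, Klrb1c and Ncr1 at 0 in HFD), eosinophil markers to 47.7 and 43.3 (Ccr3 at 0 in both), endothelial markers to 16.5 and 10.4 and early progenitor markers to 13.2 in both libraries. Basophil and mast cell markers summed to 684 and 755 UPM, of which Hdc, which neutrophils also express, was 3652 of 3684 UMIs in ND and 5287 of 5323 in HFD. The part of these cells in the gene differences was not tested beyond the values without them. Of the 162 genes past 1.5-fold, 13 (1 higher, 12 lower) were no longer past 1.5-fold in their direction without the richest cell of each library. Of these 11 fell within 1.5-fold, and Prg4 and Ccn2 turned past 1.5-fold higher (1.52 and 0.88).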

How the data were processed

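Droplet-based single-cell RNA sequencing of periosteum was deposited as 1 matrix per diet. Per the labels, the authors made the counts with Cell Ranger 6.0.1 on mm10, and the deposited values are whole-number UMI counts per gene and barcode without normalization. They were tallied at transcript 3′ ends and not scaled by length, so levels are compared between sets and not between genes. The libraries held 6314 and 6636 barcodes with 48558889 (ND) and 49940976 (HFD) UMIs, and 0 columns of values were left unused. Kept cells followed the filter in the study's methods. The immature neutrophils held 5388599 and 7050719 UMIs.

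UMIs were summed per set and library. Log2 ratios took 0.5 UMI added to each sum and genes with at least 200 UMIs (over both libraries, and over both sets where sets were compared). Levels have exact Poisson and shares exact Clopper-Pearson 95% intervals, and a count of 0 was taken to allow 3 counts. No test was made, since each diet is 1 library. Against other sets a gene counted when past 2-fold the same way in both libraries, rule genes left out. The rule genes stayed in the counts between the diets. Doublets were scored with Scrublet (scanpy 1.11.5). Ratios and intervals were tested on simulated Poisson sums without variation between cells, which cannot show how the intervals hold for these data. Python 3.11.15, numpy 2.4.6, scipy 1.17.1 and pandas 2.3.3 were used.

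The cells, gene lists and comparisons were chosen with earlier results of these data known. Named genes are the rule and marker genes, the 4 most abundant of each list (6 for lineage factors, retention and Fc receptors), the 15 highest and 15 lowest diet ratios, the 10 highest and 10 lowest against each set, and the 8 highest and 8 lowest correlations. Others were named after their values were seen. Listed genes absent from the matrix stayed out. Some single genes of the lists are not reported here. Alternatives covered the cell limits, the minimum of UMIs, the UMIs added, the scaling, thinning and doublets.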

Additional observations from a re-analysis of the deposited data

Results flagged for a closer look

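Prg4, the lubricant protein of joint surfaces, had a log2 ratio of HFD over ND of -4.64 in immature neutrophils and of 0.76 in mature neutrophils, an opposite direction in 2 sets that was not tested. In ND 2327 of its 2358 UMIs lay in 1 immature cell. Without the richest cell of each library the ratio was 1.52, from 31 UMIs in ND and 119 in HFD.

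A further 15 ND and 45 HFD barcodes met every marker limit of the immature neutrophils but were left out by the filter on detected genes and mitochondrial UMIs, and none of the comparisons used them.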

How the results depend on the processing

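The share of immature neutrophils was higher in HFD than in ND under every alternative tried. It was 9.44% and 12.1% of kept cells with a limit of 1% on Ngp, Camp and Ltf, and 6.50% and 8.90% with a limit of 4%. Removing cells with 5 or more UMIs of the markers of 8 other-cell lists, chosen after seeing the data like the removal of the highest 5% of doublet scores, gave 9.70% in HFD. The count of genes past 1.5-fold moved with the minimum of UMIs and the depth per cell. With at least 20 UMIs it was 267 higher and 1102 lower, with at least 1000 UMIs 4 and 29, with cells thinned to 1000 UMIs 290 and 442, and by the mean over cells 34 were higher. Leaving the rule genes out of the total turned the balance to 700 higher and 493 lower against mature, and 317 and 124 against intermediate neutrophils. Cd74 reversed to -0.075 without the highest doublet scores and to -0.12 without cells holding other markers, and Rrp1 to -0.059 with thinned cells. Retnla reversed to -0.93 against intermediate cells without the highest doublet scores. For Rrp1 the cause was not tested. Counting each main value once per alternative, 60 stayed within their limits and 16, all given above, moved. Of the values of single genes and lists counted in the same way, 735 stayed, 148 moved and 4 reversed. The range of cells above 20% of granule UMIs was left out of the equal weighting, since HFD had 0 such cells. No paired analysis was possible because each diet is 1 pooled library with no map from cells to mice.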
